A study of Jaculus jaculus with 29 samples.

Results

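The genes described here are 7 chosen as known or candidate regulators of vasopressin in the rat: Caprin2, Creb3l1, Rasd1, Opn3, Azin1, Nos1 and Nos1ap. They were taken by symbol from the gene names in the authors' deposited dehydration table and joined by gene identifier to the count table, where each symbol occurred once, so the 7 genes are 7 of the 29170 genes counted. All 7 passed the filter on low counts and were tested. The animals were lesser Egyptian jerboas (Jaculus jaculus), desert rodents, and polyadenylated RNA was sequenced from punches of the supraoptic nucleus, a part of the hypothalamus, in 29 libraries.

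Dehydrated animals (10 libraries) were restricted from water for 11 days. Rehydrated animals (9 libraries) were restricted for 7 days and then drank freely for 3 days, so their restriction was shorter than that of the Dehydrated animals. Control animals (10 libraries) had water at all times. All animals were housed singly with dry food, and both sexes were in every group, with 6 labelled females and 4 labelled males in Dehydrated, 4 females and 5 males in Rehydrated, and 5 of each in Control. The labels give no age.

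The magnocellular neurons of the supraoptic nucleus make vasopressin, the hormone that makes the kidney retain water, and oxytocin, and release both from the posterior pituitary. When plasma becomes more concentrated these neurons fire more and make more vasopressin precursor mRNA, Avp, and in the rat a set of regulators of that mRNA changes with it. Creb3l1 is a transcription factor that activates the rat Avp gene, Caprin2 is an RNA-binding protein that binds rat Avp mRNA and affects its poly(A) tail, and Rasd1 is a Ras-like G protein that restrains Avp expression in the rat; the transcripts of all 3 are known to rise in the osmotically challenged rat supraoptic nucleus. Nos1, the neuronal nitric oxide synthase, also rises in the challenged rat nucleus, and nitric oxide is known to restrain these neurons.

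Of the 7 genes, Caprin2 rose in Dehydrated animals, by 0.98 on the log2 scale, and the other 6 did not pass the test in any comparison made with all libraries in edgeR. Creb3l1 and Rasd1, which rise in the challenged rat, differed from Control by log2 0.08 and -0.08 in Dehydrated animals. No rat libraries were analysed here, so the kind and length of the challenge were not matched between the species. Nos1 was higher than the Control median in all 10 Dehydrated and all 9 Rehydrated libraries, but its call depended on the tool and on 1 Control library. With all 29 libraries Caprin2 had the highest correlation with Avp of the 7 genes, though Opn3 came level with it when 2 libraries were left out, and Avp was the named gene whose pattern was most like that of Caprin2.

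Libraries held 10797577 (Control M01) to 18856620 counts (Dehydrated F04). Control M01 stood apart: a principal component analysis of log2 CPM put it at 137 on the axis with the most variance (21.7%), and all other libraries at -13.7 to 7.76. Differences from Control that it moves by over 1.5 times are also given without it. Levels are CPM from TMM-scaled totals, and tests are edgeR's quasi-likelihood test with labelled sex as covariate and Benjamini-Hochberg adjustment over all 17558 genes tested, with a threshold of 0.05 on the adjusted p. A log2 fold change of 1 is a doubling.

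Levels of different genes were compared per kb of annotated exon. In Dehydrated animals Azin1 was highest at 32.7 ± 2.30 CPM per kb (SD, n = 10), followed by Caprin2 at 15.5 ± 7.51, Nos1 at 13.7 ± 2.58, Rasd1 at 10.7 ± 1.15 and Creb3l1 at 9.96 ± 0.77 CPM per kb. Nos1ap at 6.33 ± 0.93 and Opn3 at 3.82 ± 1.56 CPM per kb were lowest. In Control animals the order differed in the middle: Rasd1 had 11.5 ± 2.48, Nos1 9.84 ± 2.71, Creb3l1 9.41 ± 1.67 and Caprin2 7.61 ± 1.37 CPM per kb (SD, n = 10), and the means of Rasd1, Nos1 and Creb3l1 lay within the SD of their neighbours. Avp itself stood far above all of them, at 6733 ± 2450 CPM per kb in Dehydrated and 1911 ± 1221 CPM per kb in Control. As counts, Azin1 had 500 to 1816 per library and Caprin2 308 to 2468, while Opn3 had 46 to 256.

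**Figure D1:**
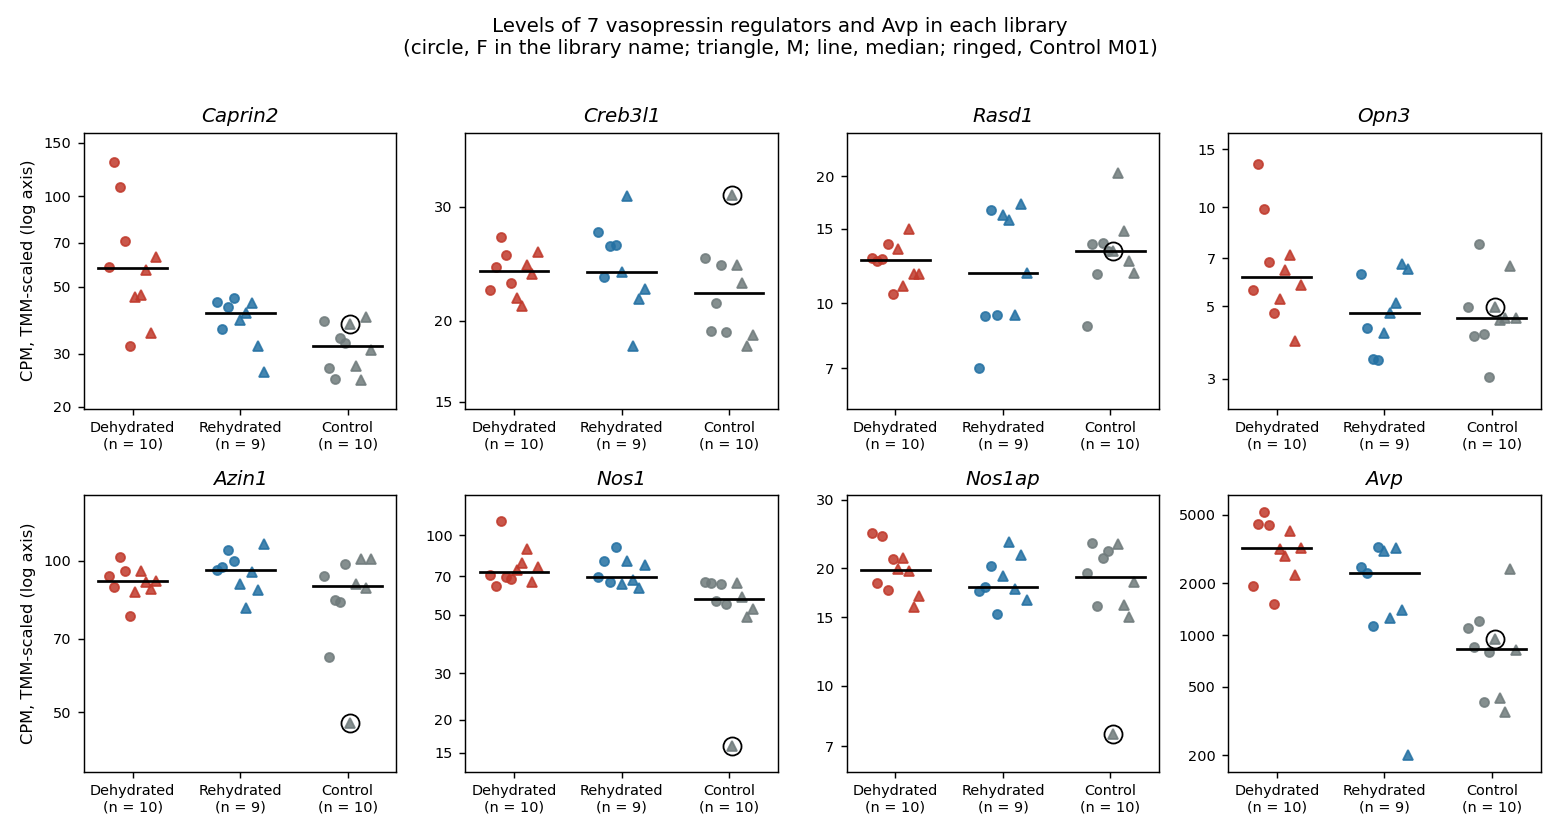
Level of each of the 7 genes and of Avp (CPM on a log axis) in every library, by treatment; circles and triangles are libraries with F and M in their name, the line is the group median and the ring marks Control M01. Caprin2 reaches 130 CPM in Dehydrated against at most 39.7 CPM in Control, and Control M01 lies lowest of all 29 libraries for Azin1, Nos1 and Nos1ap.

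Caprin2 (ENSJJAG00000018136, chromosome 22, 773822 to 850147 on the plus strand of mJacJac1, 4160 exon bases) was lowest at 31.7, had a median of 57.5 and was highest at 130 CPM in Dehydrated. In Rehydrated these values were 26, 41.0 and 46.0 CPM, and in Control 24.6, 31.7 and 39.7 CPM. Of the 10 Dehydrated libraries, 9 lay above the Control median and 8 above the highest Control library, while Dehydrated F07 and M08 lay within the Control range, so the groups overlapped. Dehydrated F04 and F05 were the highest, at 130 and 107 CPM.

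The mean of Caprin2 was 64.5 ± 31.2 CPM in Dehydrated and 31.6 ± 5.70 CPM in Control (SD, n = 10 each), a log2 fold change of 0.98 (SE 0.18) with a 95% interval of 0.62 to 1.34, or 1.54-fold to 2.53-fold (edgeR, adjusted p = 0.0109). It was the only one of the 7 genes called in this comparison, in which 0.125% of all genes tested were called, 20 higher and 2 lower. Only 7 genes had a smaller p, and 66 had a larger log2 fold change. The call held without each library in turn, with a log2 fold change of 0.84 (without Dehydrated F04) to 1.06 (without Dehydrated F07) and an adjusted p of at most 0.0345. It was lost when only the Dehydrated and Control libraries were fitted (log2 fold change 0.97, edgeR adjusted p = 0.0804) and in fits of either sex alone. The authors' deposited table gives Caprin2 a log2 fold change of 1.03 with an adjusted p of 8.14e-05.

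In Rehydrated animals Caprin2 lay between the other groups. Its mean was 39 ± 6.67 CPM (n = 9), and 7 of 9 libraries were above the Control median and 5 above the highest Control library. Against Control the log2 fold change was 0.32 with a 95% interval of -0.04 to 0.69 (edgeR, adjusted p = 0.699). Against Dehydrated it was -0.66 with a 95% interval of -1.03 to -0.29, and all 9 Rehydrated libraries were below the Dehydrated median, but the adjusted p was 0.70 in edgeR (unadjusted p = 0.00108). The order of means was Dehydrated, Rehydrated, Control, and neither neighbouring pair passed the test.

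Creb3l1 (ENSJJAG00000014152, chromosome 1, 179651054 to 179705052, minus strand) belongs to the CREB3 family, whose members are released from the endoplasmic reticulum and cut to reach the nucleus. It spanned 21.1, 23.9 and 26.9 CPM as lowest, median and highest in Dehydrated, 18.3, 23.8 and 31.1 CPM in Rehydrated, and 18.3, 22.1 and 31.2 CPM in Control. No Dehydrated library was above the Control range or below it, and the highest Control value was that of Control M01; the other Control libraries reached 25.0 CPM. The log2 fold change was 0.08 (SE 0.09) in Dehydrated against Control, and its 95% interval of -0.11 to 0.27 spans folds of 0.928 to 1.21 (edgeR, adjusted p = 0.851). Without Control M01 it was 0.14. In Rehydrated against Control it was 0.12 (edgeR, adjusted p = 0.773) and without Control M01 0.19, and in Rehydrated against Dehydrated 0.04.

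Rasd1 (ENSJJAG00000021532, chromosome 12, 31507403 to 31508714, plus strand) is also induced by glucocorticoids, which gave it the name dexras. It had 10.5, 12.6 and 15 CPM as lowest, median and highest in Dehydrated, 7.02, 11.8 and 17.2 CPM in Rehydrated, and 8.82, 13.3 and 20.3 CPM in Control. Only 3 of 10 Dehydrated libraries were above the Control median, and all 10 lay inside the Control range. The log2 fold change in Dehydrated against Control was -0.08 (SE 0.14) with a 95% interval of -0.36 to 0.21, or folds of 0.777 to 1.16 (edgeR, adjusted p = 0.90).

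Rasd1 spread differently in the groups, with a coefficient of variation of 10.7% in Dehydrated, 31.3% in Rehydrated and 21.7% in Control. In Rehydrated, 4 libraries lay at 7.02 to 9.38 CPM, Rehydrated M08 at 11.8 CPM and 4 at 15.7 to 17.2 CPM. The low set was F03, F04, F06 and M05, and the high set was F05, M01, M04 and M06. Rehydrated labelled females averaged 10.6 ± 4.16 CPM (n = 4) and labelled males 14.1 ± 3.32 CPM (n = 5), a difference that was not tested. The log2 fold change was -0.12 in Rehydrated against Control (edgeR, adjusted p = 0.856) and -0.04 in Rehydrated against Dehydrated.

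Opn3 (ENSJJAG00000020588, chromosome 1, 319179920 to 319218638, minus strand) encodes encephalopsin, an opsin of the brain and other tissues outside the eye. An unnamed gene with 12653 counts over all libraries, ENSJJAG00000024646, lies inside its span on the same strand, and Opn3 itself has 2589. Its lowest, median and highest levels were 3.90, 6.11 and 13.5 CPM in Dehydrated, 3.43, 4.77 and 6.72 CPM in Rehydrated, and 3.04, 4.59 and 7.70 CPM in Control. In Dehydrated, 9 of 10 libraries were above the Control median and 2 above the Control range. Those 2 were F04 at 13.5 and F05 at 9.86 CPM, the libraries that were also highest for Caprin2.

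Opn3 had a log2 fold change of 0.50 (SE 0.20) and a 95% interval of 0.10 to 0.90 in Dehydrated against Control, and in edgeR an unadjusted p of 0.0161 but 0.669 once adjusted. Without Dehydrated F04 it was 0.35 (edgeR, adjusted p = 0.736). In Rehydrated against Control the log2 fold change was 0.02, and in Rehydrated against Dehydrated -0.49 with a 95% interval of -0.90 to -0.07 (edgeR, unadjusted p = 0.0234, adjusted p = 1). The authors' deposited table gives 0.50 with an adjusted p of 0.576 for Dehydrated against Control.

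Azin1 (ENSJJAG00000020420, chromosome 2, 173951794 to 173988966, minus strand) encodes an antizyme inhibitor, which frees ornithine decarboxylase from its inhibitor and so promotes polyamine synthesis. It spanned 77.8, 91.1 and 102 CPM in Dehydrated, 80.5, 96.1 and 108 CPM in Rehydrated, and 47.6, 89.1 and 101 CPM in Control as lowest, median and highest. Control M01 held the lowest value, and the next Control library, F02, was at 64.4 CPM. The log2 fold change was 0.09 (SE 0.09) in Dehydrated against Control (edgeR, adjusted p = 0.843) and 0.17 in Rehydrated against Control (edgeR, adjusted p = 0.709). Without Control M01 these differences were 0.03 for Dehydrated and 0.098 for Rehydrated.

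Nos1 (ENSJJAG00000021583, chromosome 13, 18582084 to 18682808, plus strand) spanned 64.0, 72.5 and 113 CPM in Dehydrated, 63.0, 69.3 and 90.3 CPM in Rehydrated, and 15.9, 57.3 and 66.5 CPM in Control as lowest, median and highest. Above the highest Control library lay 8 of 10 Dehydrated and 7 of 9 Rehydrated libraries. Control M01 gave the 15.9 CPM, and the other 9 Control libraries spanned 48.9 to 66.5 CPM.

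Nos1 had a log2 fold change of 0.47 (SE 0.15) and a 95% interval of 0.17 to 0.77 in Dehydrated against Control (edgeR, unadjusted p = 0.00331, adjusted p = 0.476). Without Control M01 it was 0.37, and the edgeR adjusted p was 0.127. DESeq2 gave an adjusted p of 0.216 with all libraries, where it called 0.223% of genes and only Caprin2 of the 7, and of 0.0279 without Control M01. The authors' deposited table, whose columns for this comparison include none under the code of Control M01, gives 0.37 (SE 0.09) at an adjusted p of 0.0293, in a table where 0.262% of genes have an adjusted p under 0.05.

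In Rehydrated against Control, a comparison that shares the Control libraries, Nos1 had a log2 fold change of 0.42 (SE 0.15; edgeR, unadjusted p = 0.00967, adjusted p = 0.571), and 0.31 without Control M01 (edgeR, adjusted p = 0.405). Rehydrated and Dehydrated differed by -0.05 with a 95% interval of -0.36 to 0.26. Nos1 means were 76.8 ± 14.5 CPM in Dehydrated (n = 10), 73.2 ± 9.05 CPM in Rehydrated (n = 9) and 59.4 ± 6.70 CPM in the 9 Control libraries other than M01 (SD). Whether Nos1 and Caprin2 differed in how they stood in Rehydrated animals was not tested.

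Nos1ap (ENSJJAG00000011196, chromosome 1, 313858494 to 314159996, minus strand) encodes an adaptor that binds neuronal nitric oxide synthase and links it to Rasd1. It overlaps Spata46 on the other strand, and the counting used no strand option, but Spata46 has 233 counts in all against 8747 of Nos1ap. Its lowest, median and highest levels were 15.9, 19.8 and 24.6 CPM in Dehydrated, 15.3, 17.9 and 23.4 CPM in Rehydrated, and 7.52, 19 and 23.2 CPM in Control. Control M01 was the library at 7.52 CPM, and the other Control libraries spanned 15 to 23.2 CPM. The log2 fold change was 0.12 (SE 0.13) in Dehydrated against Control (edgeR, adjusted p = 0.851) and 0.04 without Control M01. In Rehydrated against Control it was 0.06 (edgeR, adjusted p = 0.931) and -0.036 without Control M01.

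**Figure D2:**
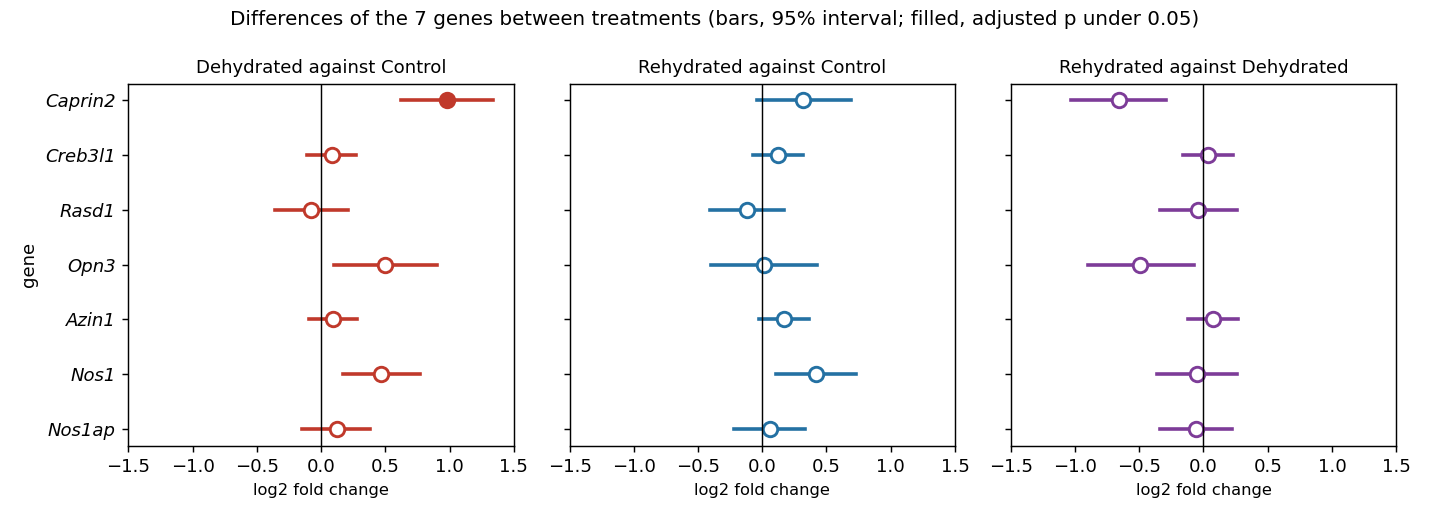
Log2 fold change of the 7 genes with its 95% interval in the 3 comparisons, from the edgeR fit over all 29 libraries; a filled point has an adjusted p under 0.05. Caprin2 in Dehydrated against Control, at 0.98, is the only filled point, and the intervals of Creb3l1 and Rasd1 include 0 in all 3 panels.

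Read against all genes, the 7 genes stood as follows. In Dehydrated against Control, 6 of 7 had a log2 fold change above 0, with a median of 0.12, against 49.2% of all genes tested and a median of -0.003. An unadjusted p under 0.05 was found for 3 of 7 (Caprin2, Nos1 and Opn3), against 6.37% of all genes. The 7 genes were chosen with earlier results of these data known, so these shares are a description and were not tested. In Rehydrated against Control, 0 of 7 genes were called by edgeR, and so were 0% of all genes; 1 of 7 (Nos1) and 7.48% of all genes had an unadjusted p under 0.05, and DESeq2 called 18 genes (0.105%) and 0 of the 7. In Rehydrated against Dehydrated, 0 of 7 were called and 0.0228% of all genes were, 2 of 7 (Caprin2 and Opn3) and 3.88% of all genes had an unadjusted p under 0.05, and DESeq2 called 13 genes (0.0742%) and again 0 of the 7.

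The response to dehydration was also compared between the sexes. For Caprin2 the log2 fold change was 1.11 in labelled females and 0.80 in labelled males, and neither passed (edgeR, adjusted p = 0.241 and 0.303). The difference was 0.31 with a 95% interval of -0.42 to 1.04 (edgeR, adjusted p = 0.906). For Opn3 the log2 fold change was 0.75 in females and 0.15 in males, a difference of 0.60 with an interval of -0.18 to 1.39 (edgeR, adjusted p = 0.844). For Nos1 it was 0.34 in females and 0.63 in males, a difference of -0.28 with an interval of -0.91 to 0.34 (edgeR, adjusted p = 0.90). None of the 7 genes and 0% of all genes passed this test in edgeR, in which 1063 genes (6.05%) and 0 of the 7 had an unadjusted p under 0.05. DESeq2 called 2 genes (0.0114%) and none of the 7, with 6.65% of all genes at an unadjusted p under 0.05.

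In 3 libraries the labelled sex and the letter of the name differ. With the letter in place of the label, Caprin2 had a log2 fold change of 1.35 among F-named and 0.64 among M-named libraries, a difference of 0.71 with an interval of 0.01 to 1.41 (edgeR, unadjusted p = 0.0464, adjusted p = 0.534). In that test 9.23% of all genes had an unadjusted p under 0.05, and 9 genes (0.0513%) and 0 of the 7 were called. The response of Caprin2 among F-named libraries passed in this fit over all libraries (edgeR, adjusted p = 0.0346), in which 0.0626% of genes were called, and that among M-named libraries did not (adjusted p = 0.251). In F-named libraries Caprin2 spanned 31.7 to 130 CPM in Dehydrated and 24.7 to 38.6 CPM in Control, and in M-named libraries 35 to 62.8 CPM in Dehydrated and 24.6 to 39.7 CPM in Control.

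Covariation with Avp was measured over the 29 libraries after the mean of each group and labelled sex was taken off. The mean shift of Avp with dehydration therefore does not enter. For rho, levels were first ranked over all 29 libraries, and the means of the ranks were then taken off. Avp had 1512, 3188 and 5179 CPM in Dehydrated, 201, 2305 and 3268 CPM in Rehydrated, and 359, 836 and 2423 CPM in Control as lowest, median and highest. Caprin2 had a Pearson r of 0.55 (permutation p = 0.00026, adjusted over the 7 genes 0.00182) and a Spearman rho of 0.67 (permutation p = 0.00031, adjusted 0.00217). Without Rehydrated M08 and Control M04, the 2 libraries farthest from the median of Avp, r was 0.52 (adjusted 0.0258). Of all other genes tested, 0.729% had an r with Avp at least as high. Its r with Oxt, the oxytocin precursor, was 0.40 (permutation p = 0.0175, adjusted 0.123).

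Opn3 was next, with a Pearson r of 0.30 and a Spearman rho of 0.40 (permutation p = 0.124 and 0.051, adjusted 0.435 and 0.178). Its r became 0.53 without Rehydrated M08 alone, which had the lowest Avp level and the second highest Opn3 level of its group (permutation, adjusted p = 0.022). Without the same 2 libraries as above its r was 0.53 (permutation, adjusted p = 0.0283), against 0.52 for Caprin2. The other 5 genes had r between -0.23 (Nos1ap) and -0.09 (Creb3l1), and none passed the test. Without Rehydrated M08 alone r was -0.47 for Nos1ap and -0.39 for Rasd1 (permutation, adjusted p = 0.0851 and 0.125). For Creb3l1, 63.7% of all genes had an r with Avp at least as high, and for Rasd1 79.7%.

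Within single groups, Caprin2 and Avp had r = 0.80 and rho = 0.83 in the 10 Dehydrated libraries (permutation p = 0.00542 and 0.00486, adjusted over 21 correlations 0.105 and 0.051) and r = 0.87 without the 2 libraries farthest from the median. In the 9 Rehydrated libraries they had r = 0.79 and rho = 0.65 (exact permutation p = 0.0221 and 0.0666, adjusted 0.155 and 0.233), and r = 0.58 without 2 libraries. In the 10 Control libraries r was 0.51 and rho 0.45 (permutation p = 0.134 and 0.192, adjusted 0.281 and 0.402), and r was 0.05 without 2 libraries, so that the Control relation rests on those 2. Opn3 and Avp had r = 0.75 and rho = 0.87 in Dehydrated (permutation p = 0.00997 and 0.00204, adjusted 0.105 and 0.0428), r = -0.42 and rho = -0.37 in Rehydrated (exact permutation p = 0.275 and 0.336, adjusted 0.526 and 0.504) and r = 0.55 and rho = 0.67 in Control (permutation p = 0.0993 and 0.0392, adjusted 0.261 and 0.165). Of the other 5 genes, 4 also had a positive r with Avp in Dehydrated: Azin1 0.66, Creb3l1 0.60, Rasd1 0.60 and Nos1 0.51. Nos1ap had -0.10, and no r of these 5 genes passed the permutation test (adjusted p of 0.175 or more). The highest rho of the 5 was that of Creb3l1, 0.70, which did not pass either (permutation p = 0.0302, adjusted 0.158). In Control, Rasd1 had r = -0.57 and rho = -0.76 (permutation p = 0.0798 and 0.0154, adjusted 0.239 and 0.108). The differences between the groups' correlations were not tested.

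**Figure D3:**
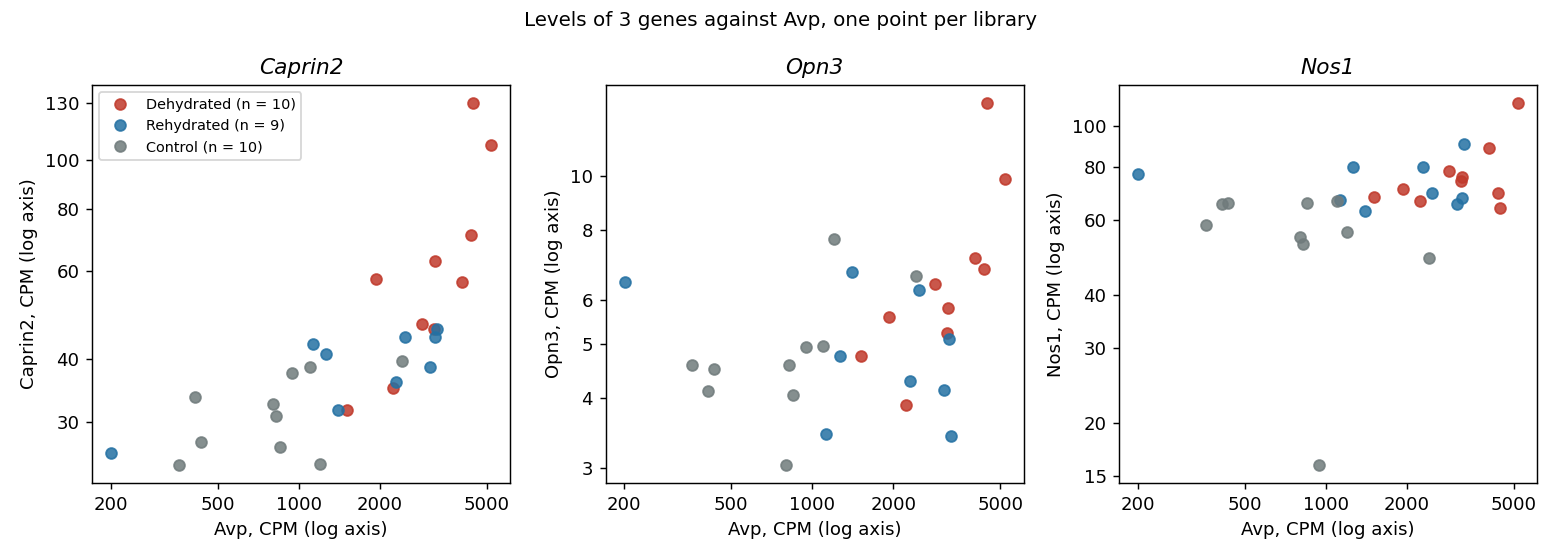
Level of Caprin2, Opn3 and Nos1 against that of Avp (CPM, both axes logarithmic), one point per library coloured by treatment. Within Dehydrated the r with Avp is 0.80 for Caprin2, 0.75 for Opn3 and 0.51 for Nos1, and over the libraries of both treated groups Nos1 lies between 63.0 and 113 CPM.

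The genes whose pattern over all 29 libraries was most like each of the 7 were found by Spearman rho of uncentred log2 CPM among 12195 named genes averaging 1 log2 CPM or more, as a description that includes the shift between groups. For Caprin2 the closest was Avp itself, with a rho of 0.85. Next came Tmod1, which caps actin filaments (0.80), Spp1, the secreted phosphoprotein osteopontin (0.78), Gpnmb, a transmembrane glycoprotein (0.77), and Ell2, a transcription elongation factor (0.76). Of these, Tmod1 averaged 29 ± 10.5 CPM in Dehydrated, 18.6 ± 6.48 CPM in Rehydrated and 11.3 ± 3.77 CPM in Control, the same order of groups as Caprin2. Ell2 averaged 41.0 ± 12.1 CPM in Dehydrated, 30.1 ± 6.60 CPM in Rehydrated and 29.5 ± 6.28 CPM in Control and was not called (edgeR, adjusted p = 0.545).

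For Nos1 the closest were Maml3, a coactivator of Notch signalling (0.83), Klhl1 (0.75) and Reln, the secreted protein reelin (0.74), and Avp came at place 210 with 0.50. Maml3 had 11.7 ± 1.68 CPM in Dehydrated, 10.6 ± 0.65 CPM in Rehydrated and 7.78 ± 2.00 CPM in Control, a log2 fold change of 0.58 in Dehydrated against Control (edgeR, adjusted p = 0.037). That call held in 14 of 29 fits with 1 library left out. For Opn3 they included Tnfaip3 (0.70) and Slc25a13 (0.63), with Avp at place 85 (0.46). For Creb3l1 they were Klhdc2, Lmln2 and Fcn3 (0.67 to 0.63), with Avp at place 1699 (0.20), and for Rasd1 Rnf19b, Sf3a1 and Trim8 (0.67 to 0.61), with Avp at place 11002 (-0.25). For Azin1 they were Mal2, Fam13a and Csnk2a1 (0.78 to 0.69), and for Nos1ap they included Hcfc1 (0.78) and Agap1 (0.73), with Avp at places 4908 and 7751.

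Among themselves the 7 genes showed no covariation that passed the test in the 21 pairs, again after group and sex means were taken off. The highest r was that of Nos1 with its adaptor Nos1ap, 0.78 (permutation p = 0.00385, adjusted 0.0808), but rho was 0.33 and r was 0.39 without Control M01. Azin1 and Nos1 had r = 0.69 with all libraries and 0.05 without Control M01. Caprin2 and Opn3 had r = 0.55 with all libraries (permutation p = 0.0127, adjusted 0.133) and 0.57 without Control M01, but 0.21 without the 2 libraries farthest from the median. Rasd1 and Nos1ap had r = 0.33 and rho = 0.43, and Caprin2 and Creb3l1 r = 0.32 and rho = 0.37 (adjusted p of r by permutation 0.301 and 0.224).

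The wider pathways of the 7 genes were described with gene lists, which were chosen with earlier results of these data known. Of all genes tested, edgeR called 0.125% in Dehydrated against Control, 0% in Rehydrated against Control and 0.0228% in Rehydrated against Dehydrated. In Dehydrated against Control 49.2% of all genes were above 0. For lists of this size, 0 called is therefore close to the share over all genes. Of 26 genes of the cAMP and CREB pathway, which has long been linked to Avp transcription, 0 were called in any comparison, 17 were above 0 in Dehydrated against Control and the median log2 fold change was 0.07. Its first members Creb1 (0.18), Atf1 (-0.09), Crem (0.09) and Crtc1 (0.10) had adjusted p of 0.847 to 0.908 in edgeR. Fos was the only one of the 26 with an unadjusted p under 0.05 in Dehydrated against Control, where 6.37% of all genes had one. It averaged 15.9 ± 3.46 CPM in Dehydrated and 38.1 ± 23 CPM in Control, a log2 fold change of -1.03 (edgeR, unadjusted p = 0.00239, adjusted p = 0.461). Of 8 tested genes of the CREB3 family and its processing, 0 were called, and Creb3 (0.05), Creb3l2 (0.05) and the processing proteases Mbtps1 (0.03) and Mbtps2 (0.16) were close to 0 on the log2 scale. Creb3l2 had 6.84 ± 1.63 CPM in Dehydrated and 6.61 ± 2.04 CPM in Control.

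Of 20 genes for Caprin and mRNA poly(A) partners, 0 were called in any comparison, and their median log2 fold change in Dehydrated against Control was 0.08. Caprin1, the paralogue of Caprin2, had 306 ± 11.8 CPM in Dehydrated and 301 ± 39.5 CPM in Control (SD, n = 10 each), a log2 fold change of 0.02 (edgeR, adjusted p = 0.945). Its stress granule partners G3bp1 (-0.11), G3bp2 (0.11) and Usp10 (-0.01) did not pass either.

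Of 10 tested Rasd1 partners, 0 were called, with Rasd2, its closest relative, at -0.09 and Slc11a2, Gnai1 and Gnai2 at 0.20, 0.10 and 0.11 in Dehydrated against Control. Of 9 tested genes known to respond to glucocorticoids, 0 were called and 5 were above 0 in that comparison. An unadjusted p under 0.05 was found for 5 of the 9, against 6.37% of all genes. Without Control M01 it was found for 4 of the 9, against 5.74% of all genes. The 5 found with all libraries went in both directions. Fkbp5 (0.59), Hif3a (0.67) and Zbtb16 (0.38) were higher on the log2 scale, and Ddit4 (-0.31) and Nfkbia (-0.45) lower. Fkbp5, a chaperone cofactor induced by the glucocorticoid receptor, was at 11.5 ± 5.08 CPM in Dehydrated, 11.6 ± 3.41 CPM in Rehydrated and 7.60 ± 1.67 CPM in Control (edgeR, adjusted p = 0.587 in Dehydrated against Control). Nr3c1, the receptor (0.10), Sgk1 (-0.20) and Per1 (-0.22) lay on both sides of 0 on the log2 scale.

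Of 12 tested polyamine pathway genes, 0 were called and 5 were above 0, with a median of -0.05 in Dehydrated against Control. Odc1, the ornithine decarboxylase that Azin1 frees, was at 0.11, and the antizymes Oaz1, Oaz2 and Oaz3 at -0.16, -0.03 and -0.71, the last from about 1 CPM. Of 21 nitric oxide pathway genes, 0 were called and 11 were above 0, with a median of 0.0038. Nos3, the endothelial synthase, had 11.0 ± 1.23 CPM in Dehydrated and 14 ± 2.94 CPM in Control (log2 fold change -0.34, edgeR adjusted p = 0.642), and Nos2, the inducible synthase, was below 1 CPM on average in all groups. Gucy1a1 (-0.04) and Gucy1a2 (0.24) encode subunits of the nitric oxide receptor guanylate cyclase. The only other opsin tested, Opn5, averaged 0.71 ± 0.72 CPM in Dehydrated and 0.51 ± 0.47 CPM in Control.

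Without Control M01 none of the genes in these pathway lists was called either, but the small medians in Dehydrated against Control moved. The median log2 fold change went from 0.076 to 0.044 for the CREB3 family and its processing, and from 0.097 to 0.024 for the Rasd1 partners. It was then 0.03 for the cAMP and CREB pathway and 0.017 for the Caprin partners. For the glucocorticoid genes it was -0.012, for the polyamine pathway 0.0097 and for the nitric oxide pathway -0.012. The last 3 thereby changed sign, with 4 of 9, 7 of 12 and 8 of 21 genes above 0.

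A further list held Avp and other peptide, receptor and secretory genes, not all particular to vasopressin neurons. Of its 7 tested genes, 3 were called in Dehydrated against Control, where 0.125% of all genes were. Avp, Pdyn and Pcsk1, a prohormone convertase, rose by 1.81, 1.13 and 1.39 on the log2 scale (edgeR, adjusted p = 0.0388, 0.00369 and 0.00369). Pdyn, the prodynorphin precursor, had 142 ± 51.6 CPM in Dehydrated, 90.2 ± 17.6 CPM in Rehydrated and 64.4 ± 15.2 CPM in Control, the same order as Caprin2. Oxt, Avpr1a, Scg2 and Vgf were not called, with log2 fold changes of -0.07, -0.18, 0.37 and 0.65. The calls of Pdyn and Pcsk1 held without each library in turn. Avp stayed called in 10 of these 29 fits, at log2 fold changes of 1.71 to 2.07 and an edgeR adjusted p of 0.00681 to 0.106, and without Control M01 it was 1.84 (adjusted p = 0.0879). In DESeq2 the adjusted p of Avp was 4.66e-05 with all libraries. In Rehydrated against Dehydrated only Pcsk1 of the 7 was called, and it was lower, in 8 of 29 fits with 1 library left out.

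Cell type markers were measured beside these results, since in punched tissue fewer cells of a type and less RNA per cell cannot be told apart. Of 8 markers of magnocellular neurons only Avp was called in Dehydrated against Control, and the median of the 8 log2 fold changes was -0.02. The transcription factors Otp and Sim1 averaged 28.8 and 34.9 CPM in Dehydrated and 29.3 and 30.9 CPM in Control. The sum over the list, mostly Avp and Oxt, ran from 2299 to 6876 CPM in Dehydrated, from 552 to 5347 CPM in Rehydrated and from 837 to 3767 CPM in Control. All 6 tested markers of mature oligodendrocytes, which fill the optic tract beside the nucleus, were below 0 in both treated groups and none was called. With a median log2 fold change of -0.48 in Rehydrated against Control, 4 of the 6 had an unadjusted p under 0.05 in edgeR, against 7.48% of all genes; in Dehydrated against Control 0 of the 6 did. Their sums were 2299 to 6176 CPM in Dehydrated, 1114 to 8007 CPM in Rehydrated and 2497 to 6427 CPM in Control. The blood markers Hba1 and Alas2 were lower in Dehydrated without passing the test. Against Control their median log2 fold change was -1.55, and 2 of 2 had an unadjusted p under 0.05 in edgeR, against 6.37% of all genes. In Rehydrated against Dehydrated the median was 1.53, and 2 of 2 again had one, against 3.88% of all genes. Their sums were 31.7 to 187 CPM in Dehydrated, 33.6 to 962 CPM in Rehydrated and 114 to 806 CPM in Control. Of 7 astrocyte, 6 microglial and 5 endothelial markers none was called in any comparison.

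Of 8 markers of suprachiasmatic and other nearby neurons none passed in edgeR, but Vip, the vasoactive intestinal peptide precursor of suprachiasmatic neurons, was close to the threshold. It had 13.7, 26 and 67 CPM as lowest, median and highest in Dehydrated, 0.658, 4.5 and 22.7 CPM in Rehydrated, and 0.401, 2.66 and 30.3 CPM in Control, so the groups overlapped. Against Control, Dehydrated had a log2 fold change of 2.56 for Vip (SE 0.54; edgeR, adjusted p = 0.0509), and Rehydrated against Dehydrated was lower without passing the test (edgeR, unadjusted p = 0.001, adjusted p = 0.70). DESeq2 called it in Dehydrated against Control, with an adjusted p of 0.000747, and edgeR did so in 6 of 29 fits with 1 library left out. Vip was thus higher in the same group as Caprin2 and Avp, while the sum over the 8 markers was 265 to 504 CPM in Dehydrated, 264 to 471 CPM in Rehydrated and 277 to 671 CPM in Control. The part of these cell types in the levels of the 7 genes was not tested.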

How the data were processed

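Polyadenylated RNA of 29 punched supraoptic nuclei was analysed, each library treated as 1 animal because the labels describe singly housed, numbered animals. Whole-number counts per gene were deposited by the authors, made with featureCounts 1.6.2 on the Ensembl annotation of mJacJac1 with no strand option, per the file headers. Which aligner was used is not stated there or in the labels. Exon lengths in bases come from the same header, per the file headers. From the authors' deposited tables, log2 fold changes, their errors and p-values, raw and adjusted, were read. The submitters' processing notes name DESeq2, without its model. Their 56 columns of values per library were not used.

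Counts were filtered with edgeR's filterByExpr (17558 genes kept; 11612 removed, holding 0.126% of counts), scaled by TMM and fitted with edgeR 4.0.16 in R 4.3.3 (robust quasi-likelihood, group and labelled sex, 25 residual degrees of freedom). Correlations used log2 CPM and 100000 permutations, or exact ones for 9 libraries, in scipy 1.17.1. The counts behind the 7 genes are given with the results, and each error also holds the spread between animals. The pipeline was tested on simulated data. Alternatives were DESeq2 1.42.0, other scalings, filters, covariates, groups in the fit and thresholds, a replicate block, surrogate variables (sva 3.50.0), single sexes, and each library left out. Fits of single name letters, DESeq2 without Control M01, the gene lists without Control M01 and correlations among the 7 genes were added after seeing the data.

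The 7 genes and all gene lists were chosen with earlier results of these data known. All 7 genes are named, with Avp, Oxt and Pdyn, every called member of a list and up to 4 others in list order, and the genes most alike by Spearman rho (5 for Caprin2, 3 for the others, of which 2 are not reported here). Fos and the glucocorticoid-responsive genes with an unadjusted p under 0.05 in Dehydrated against Control were named as well. Names came from the authors' table for 9699 genes and from RefSeq by position for another 5594. Sequences of these genes were not used here.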

Additional observations from a re-analysis of the deposited data

Results flagged for a closer look

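Within each group of libraries, the level of each of the 7 genes was examined for a library far from the others, and 5 of 21 groups held one; chance gives about 1 in 20. Nos1 had 15.9 CPM in Control M01, against 48.9 to 66.5 CPM in the other Control libraries. Nos1ap had 7.52 CPM in Control M01, against 15 to 23.2 CPM, and Creb3l1 had 31.2 CPM in that library, against 18.3 to 25.0 CPM. So 3 of the 5 values come from the library that stands apart over all genes. Nos1 had 113 CPM in Dehydrated F05, against 64.0 to 88.8 CPM in the other Dehydrated libraries, and without that library its log2 fold change in Dehydrated against Control was 0.40. Rasd1 had 20.3 CPM in Control M03, against 8.82 to 14.8 CPM in the other Control libraries.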

How the results depend on the processing

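The call of Caprin2 in Dehydrated against Control held in 38 of 43 alternatives and its direction in all 43, with a log2 fold change of 0.64 to 1.28. The number of the 7 genes called there was 0 instead of 1 with only the 2 groups fitted, in labelled females, in labelled males, in F-named and in M-named libraries alone, and 2 (Caprin2 and Nos1) in DESeq2 without Control M01; in the other comparisons it was 0 throughout. Caprin2's correlation with Avp passed in all 33 alternatives, with r or rho from 0.51 to 0.67. Same-numbered libraries of different groups did not deviate together (19 pairs, correlations -0.12 to 0.11, 2 over 0.1). Whether the numbers pair animals cannot be told from this, since a pairing with little effect on levels would not be seen. With a replicate block Caprin2 had a log2 fold change of 1.12 (edgeR, adjusted p = 0.0304).

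Over all genes, the number called in Dehydrated against Control was 22, and 39 in DESeq2, 40 in DESeq2 without Control M01, 11 with 2 groups fitted, 12 with the replicate block, 12 with surrogate variables, 5 in M-named libraries and 0 in F-named libraries or either labelled sex alone. With 1 library left out it was 10 (without Control M03, Control F01 or Dehydrated M06) to 27. In Rehydrated against Control it was 0, and 18 in DESeq2, 3 in DESeq2 without Control M01, 2 in labelled females, and 0 to 2 with 1 library left out (2 without Rehydrated M05). In Rehydrated against Dehydrated it was 4, and 13 in DESeq2, 16 in DESeq2 without Control M01, 1 with 2 groups fitted and in labelled males, 0 in labelled females or single letters, and 2 to 9 with 1 library left out (9 without Dehydrated F07). The cause of these shifts was not tested, beyond the fewer libraries in fits of subsets.

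Changes of sign concerned differences near 0, none of them called. In Dehydrated against Control, Rasd1 was 0.096 with the replicate block, 0.019 in labelled females and 0.0039 in F-named libraries, Nos1ap -0.068 with surrogate variables and -0.023 in F-named libraries, and Creb3l1 -0.0033 in labelled males. In Rehydrated against Control, Opn3 was -0.0018 with 2 groups fitted, -0.05 with the replicate block, -0.056 in labelled females and -0.048 to 0.12 with 1 library left out. There Nos1ap was -0.16 with surrogate variables, -0.18 in labelled females, -0.28 in F-named libraries, -0.035 in DESeq2 without Control M01 and -0.036 to 0.12 with 1 library left out, and Creb3l1 -0.019 in labelled males and -0.027 in M-named libraries. In Rehydrated against Dehydrated, Rasd1 was 0.0022 without the sex covariate, 0.19 in labelled males, 0.16 in M-named libraries and -0.14 to 0.042 with 1 library left out. There Creb3l1 was -0.047 with the replicate block, -0.016 in labelled males, -0.039 in M-named libraries and -0.0093 to 0.082 with 1 library left out, Nos1 0.0034 in labelled females and -0.09 to 0.012 with 1 left out, and Nos1ap 0.086 in labelled males and 0.068 in M-named libraries. The correlation with Avp was 0.034 as rho and -0.17 to 0.047 with 1 library left out for Creb3l1, and 0.11 without 2 libraries and -0.22 to 0.002 with 1 left out for Azin1. Other scalings moved the median of all genes by at most 0.013 in size on the log2 scale. Opn3 had the fewest counts of the 7 genes.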
